A study of Mus musculus with 2 samples.

Results

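The genes described here encode 10 proteins of the DNA replication fork: *Pcna*, *Pclaf*, *Tipin*, *Gins2*, *Cdc45*, *Mcm10*, *Pola1*, *Prim1*, *Rpa2* and *Rfc4*. They were chosen by name, and 10 of the 10 symbols were found among the 10666 genes of the expression table. The data are single-cell RNA-seq of mouse cortical neurospheres, balls of neural stem cells and progenitors that grow in suspension. Both came from the dorsal telencephalon of C57BL/6 embryos, wild-type, taken at embryonic day 14.5 (E14.5) and expanded, with EGF and bFGF at 10 ng/ml each. There was 1 condition and 2 replicate cultures, with 5748 cells in culture 1 and 7057 in culture 2, so no groups were compared and no test was run. How many embryos each culture came from is not given in the sources used here, and the labels and the methods name different versions of the Chromium kit. The question was where along the cell cycle each gene is expressed, and how closely the genes follow one another.

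At a replication fork, the CMG helicase, made of the MCM2-7 ring with CDC45 and the GINS complex, unwinds the parental DNA. DNA polymerase alpha with its primase subunits lays down primers, replication protein A (RPA) covers the exposed single strand, and the clamp loader RFC places the PCNA ring that holds the other polymerases on DNA. Proliferating cells transcribe most genes of this machinery periodically, under E2F factors, around the entry into S phase, and cortical progenitors are a dividing population in which this can be followed.

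Position was taken as the authors deposited it, as an angle between 0 and 2π around a cell-cycle embedding. G1 and resting cells lie toward both ends of this scale, S phase below π and G2 and mitosis around and after π. The median cell held 19477 UMIs in culture 1 and 14637 UMIs in culture 2, and 48 barcodes occurred in both cultures. The progenitor genes *Nes*, *Vim* and *Fabp7* were detected in 89.8% to 100% of cells of either culture, while *Pax6* was detected in 21.1% and 23.1% and *Emx2* in 21.8% and 21.1%. *Olig2*, a factor of ventral and oligodendrocyte progenitors, was detected in 97.3% and 91.9% of cells, against 8.77% and 1.81% for *Pdgfra*. The astroglial gene *S100b* was detected in 18.6% and 6.65% of cells and the neuronal gene *Dcx* in 7.34% and 1.56%. No gene of the lists for microglia, endothelium, mesenchyme or red blood cells (0 of 3, 0 of 3, 0 of 3 and 0 of 2) was in the table, but *Sox2*, *Olig1*, *Emx1*, *Tubb3*, *Gfap* and *Aqp4* were not in it either, so absence from the table says little about a cell type.

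The 10 fork genes were periodic in both cultures. A curve with 2 harmonics of the position was fitted to log2(value + 1) of every gene in each culture, and a gene was counted as periodic when R², the share of its variance along the position, was at least 0.05 in both. This held for 10 of 10 fork genes and for 428 of all 10666 genes (4.01%), and for 10 of 10 against 372 (5.39%) of the 6896 genes detected in at least 10% of cells of each culture. At an R² of at least 0.02 it held for 10 of 10 and for 8.34% of all genes, and at 0.1 for 9 of 10, without *Pola1*, and for 2.25%. R² was highest for *Pclaf*, at 0.827 in culture 1 and 0.738 in culture 2, and lowest for *Pola1*, at 0.110 and 0.0749. By the lower of its R² values *Pclaf* was in place 3 among all genes. Of the 10 genes, 8 are in the Seurat S list or the cyclone list of cell-cycle markers. The paper learned its reference embedding on these neurosphere data, from the 500 cell-cycle genes of Gene Ontology that varied most. Genes of this kind can enter the embedding, and which of the 10 did was not checked here. The position was therefore rebuilt in each culture from 500 marker genes with all fork genes left out, which gave a circular correlation of 0.933 and 0.907 with the deposited one. On that position 10 of 10 fork genes and 430 of all genes (4.03%) were periodic. *Pclaf* then had an R² of 0.806 and 0.722 and *Pola1* of 0.109 and 0.0714. The rebuilt position still comes from the same cells and from genes transcribed with the fork genes.

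**Figure D1:**
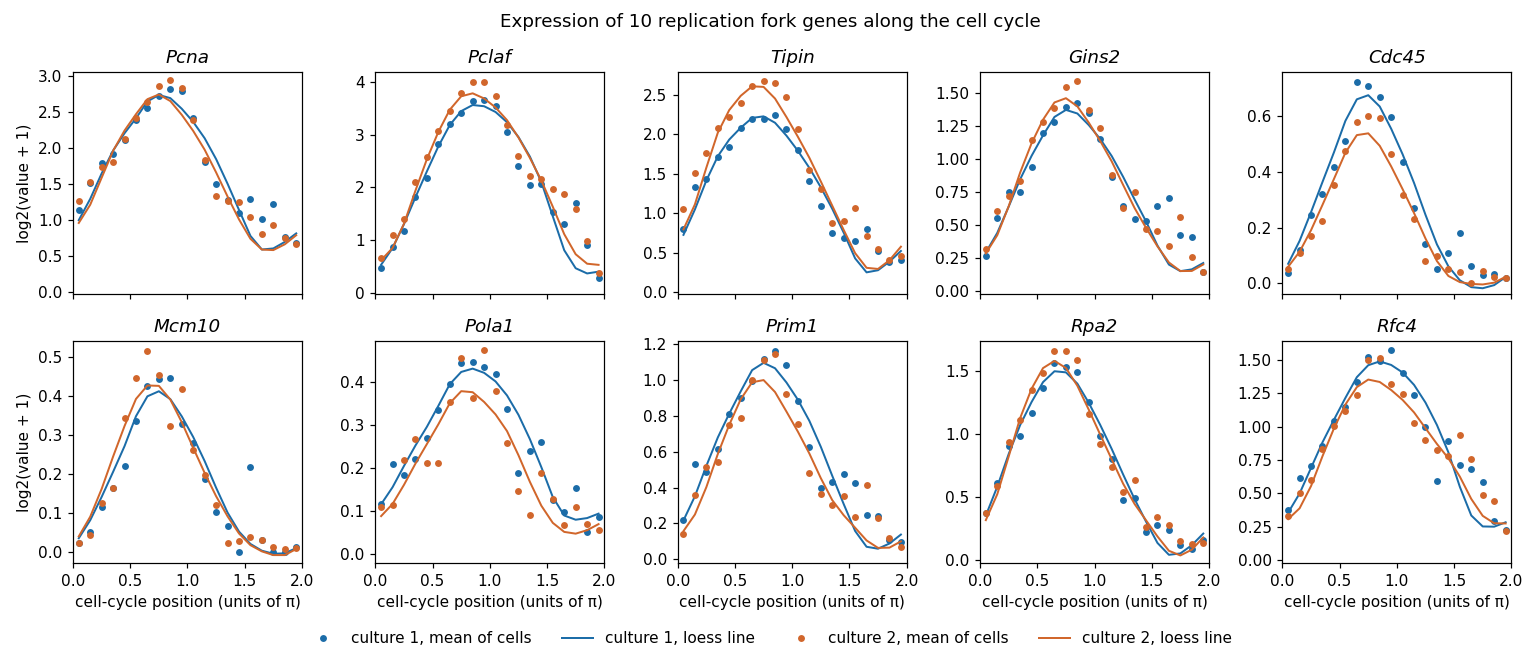
Expression of the 10 fork genes, as log2(value + 1), against cell-cycle position in units of π, with 1 panel a gene; points are means of the cells in classes of position and lines are periodic loess lines, in blue for culture 1 and orange for culture 2. Each gene has 1 broad maximum between 0.645π and 0.875π in either culture, and around 1.5π, where cells are few, the means of several genes lie above the lines.

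Values are described below in classes of position of 0.25π width, as means of the deposited values, which are linear and already scaled for the depth of each cell. As a measure of low nonzero values, each was multiplied by the total UMIs of its cell and the 10th percentile was taken. For the fork genes this was 1.17 to 1.62 times as high in culture 2 as in culture 1 (median 1.5). The median over 6896 genes was 0.996. What 1 UMI is worth may therefore differ between the cultures and between genes. Folds along the cycle are given within a culture, and levels are compared neither between cultures nor between genes.

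*Pcna* (ENSMUSG00000027342, chr2:132249162-132253314, minus strand, GRCm38) encodes the sliding clamp. The *Pcna* mean was 6.48 at 0.75π to 1π and 0.802 at 1.75π to 2π in culture 1, and 7.39 and 0.954 in culture 2. This is 8.09-fold and 7.75-fold, and the same class was highest in both cultures. At its lowest class *Pcna* was detected in 60.3% of the 1789 cells at 1.75π to 2π in culture 1 (exact 95% binomial interval 57.9% to 62.5%) and in 42.3% of the 3149 cells in culture 2 (40.6% to 44.0%). These intervals, as all those below, cover counting error only. The processed pseudogenes *Pcna-ps1* and *Pcna-ps2* are not among the rows of the table.

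*Pclaf* (ENSMUSG00000040204, chr9:65890237-65903266, plus strand) encodes the PCNA-associated factor PAF15, which binds the clamp. Over the classes its mean was 12.2 at 0.75π to 1π and 0.434 at 1.75π to 2π in culture 1, and 16.2 and 0.686 in culture 2, or 28.2-fold and 23.6-fold. *Pclaf* was still detected in most cells late in the cycle. At 1.25π to 1.5π it was detected in 95.3% of 85 cells in culture 1 (88.4% to 98.7%) and in 91.0% of 279 cells in culture 2 (87.1% to 94.1%). In the same cells *Pcna* was detected in 80.0% and 69.2%, *Rfc4* in 62.4% and 48.0% and *Cdc45* in 7.06% and 5.02%. By the mean, *Pclaf* was well below its highest class there, at 3.86 and 4.8. At 1.75π to 2π *Pclaf* fell to 28.2% and 29.4% of cells, below *Pcna*. *Pclaf* lies wholly within the opposite-strand gene *Trip4*, whose own R² was 0.00190 and 0.00307.

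*Rfc4* (ENSMUSG00000022881, chr16:23113943-23127737, minus strand) encodes a subunit of the clamp loader. The mean of *Rfc4* was 2.21 at 0.75π to 1π and 0.245 at 1.75π to 2π in culture 1, and 2.25 and 0.324 in culture 2, or 9.02-fold and 6.95-fold. It was detected in 93.6% and 79.3% of cells at its highest class and in 25.8% and 16.9% at its lowest. It shares 194 bases with the opposite-strand *Eif4a2*, whose R² was 0.0102 and 0.00129.

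Among the genes of the helicase, *Cdc45* and *Mcm10* were detected in fewer cells than *Gins2* at 1.75π to 2π. *Gins2* (ENSMUSG00000031821, chr8:120578633-120589304, minus strand) encodes a GINS subunit. Culture 1 had a mean of 1.91 at 0.75π to 1π and 0.179 at 1.75π to 2π, and culture 2 of 2.34 and 0.204, or 10.7-fold and 11.5-fold. It was detected in 16.8% and 12.4% of cells at 1.75π to 2π. It lies wholly within the opposite-strand model *Gm20388*, whose R² was 0.00556 and 0.00270.

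*Cdc45* (ENSMUSG00000000028, chr16:18780447-18811987, minus strand) encodes the helicase subunit that joins the MCM ring at firing origins. In culture 1 its mean value was 0.724 at 0.5π to 0.75π and 0.0210 at 1.75π to 2π, and in culture 2 it was 0.734 at 0.75π to 1π and 0.0268 at 1.75π to 2π. The folds were 34.4 and 27.4. It was detected in 43 of 1789 cells (2.40%, 1.74% to 3.22%) and in 48 of 3149 cells (1.52%, 1.13% to 2.02%) at 1.75π to 2π. *Cdc45* shares 209 bases with the opposite-strand *Ufd1*, whose R² was 0.00610 and 0.00181.

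*Mcm10* (ENSMUSG00000026669, chr2:4989714-5012791, minus strand) encodes an initiation factor that activates the helicase and is not part of the MCM2-7 ring. For *Mcm10* the mean was 0.427 at 0.5π to 0.75π and 0.0120 at 1.75π to 2π in culture 1, and 0.603 and 0.0120 in culture 2, or 35.6-fold and 50.4-fold. It was detected in 41.9% and 36.1% of cells in its highest class. At 1.75π to 2π it was detected in 27 of 1789 cells (1.51%, 0.997% to 2.19%) and 29 of 3149 cells (0.921%, 0.618% to 1.32%).

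*Pola1* and *Prim1* act in the same enzyme and moved by different factors. *Pola1* (ENSMUSG00000006678, chrX:93304767-93632155, minus strand) encodes the catalytic subunit of polymerase alpha. Its mean value was 0.464 at 0.75π to 1π and 0.0848 at 1.75π to 2π in culture 1, and 0.520 and 0.0709 in culture 2, or 5.47-fold and 7.33-fold, the smallest fold of the 10 genes in culture 1. *Prim1* (ENSMUSG00000025395, chr10:128015168-128030037, plus strand) encodes the catalytic subunit of primase. Its mean value was 1.42 at 0.75π to 1π and 0.0962 at 1.75π to 2π in culture 1, and 1.53 and 0.0914 in culture 2, or 14.7-fold and 16.7-fold. The fold of *Prim1* was above that of *Pola1* in both cultures.

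*Rpa2* (ENSMUSG00000028884, chr4:132768332-132778752, plus strand) encodes the middle subunit of RPA. Its mean value was 2.12 at 0.5π to 0.75π and 0.155 at 1.75π to 2π in culture 1, and 2.67 and 0.162 in culture 2, or 13.7-fold and 16.5-fold. *Rpa2* and *Mcm10* were the members whose highest class was the earlier 0.5π to 0.75π in both cultures. *Tipin* (ENSMUSG00000032397, chr9:64281581-64305424, plus strand) encodes the partner of TIMELESS in the fork protection complex. In culture 1 its mean value was 3.86 at 0.5π to 0.75π and 0.437 at 1.75π to 2π, and in culture 2 it was 5.75 at 0.75π to 1π and 0.573 at 1.75π to 2π. The folds were 8.82 and 10.0. At 0.75π to 1π the *Tipin* mean in culture 1 was 3.85, so its plateau spans both classes.

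The genes rose at different positions, in an order that was resolved only in part. Along the periodic loess lines over both cultures, the middle of the rise, where a line passes midway between its minimum and its maximum, came first in *Tipin* (0.211π), *Rpa2* (0.234π) and *Pcna* (0.261π). *Prim1* (0.306π), *Gins2* (0.308π), *Mcm10* (0.320π) and *Cdc45* (0.333π) came next, followed by *Pola1* (0.356π), *Rfc4* (0.359π) and *Pclaf* (0.383π). Of the 45 pairs of genes, 39 had the same order in both cultures, and the cultures differed by a median of 0.0212π and at most 0.0378π for a gene. *Tipin* preceded *Rpa2* within each culture, at 0.201π and 0.222π in culture 1 and 0.225π and 0.246π in culture 2. They did not differ beyond this spread between the cultures, and their ranges overlapped. *Pcna* (0.254π and 0.268π) lay after *Rpa2* and before *Prim1* without overlap, and *Pclaf* (0.381π and 0.385π) lay after *Rfc4* without overlap. The ranges of *Prim1*, *Gins2*, *Mcm10* and *Cdc45* overlapped their neighbours, as did those of *Pola1* and *Rfc4*. With a loess span of 0.1, *Tipin* remained first, at 0.127π, *Pcna* (0.220π) came before *Rpa2* (0.236π), and *Mcm10* (0.391π), *Cdc45* (0.404π) and *Pola1* (0.437π) came after *Pclaf* (0.381π). The late end of the order, *Pclaf* included, thus depends on the span. On the rebuilt position *Tipin* and *Rpa2* were first and *Pclaf* last in each culture. They lay at 0.153π, 0.161π and 0.291π in culture 1 and 0.236π, 0.248π and 0.388π in culture 2. There *Pcna* and *Prim1* coincided in culture 1, at 0.205π each.

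**Figure D2:**
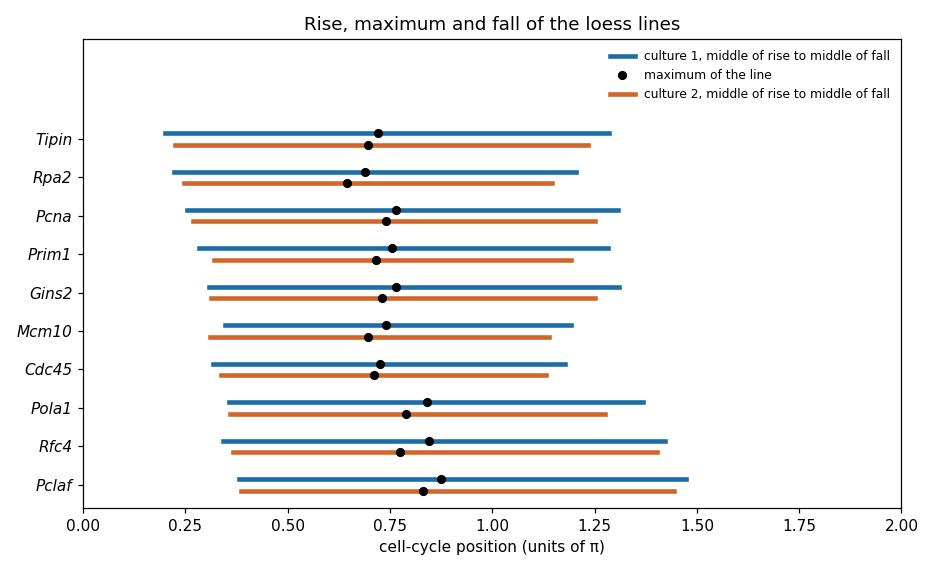
Position, in units of π, of the middle of the rise (left end of each bar), of the maximum (black point) and of the middle of the fall (right end) of the loess line of each gene, in blue for culture 1 and orange for culture 2, ordered by the middle of the rise over both cultures. *Tipin* and *Rpa2* begin earliest and *Pclaf* and *Rfc4* end latest in both cultures.

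The maxima followed a similar order. *Rpa2* was highest at 0.665π, *Tipin* at 0.70π, *Mcm10* at 0.715π, *Cdc45* at 0.720π, *Prim1* at 0.735π, *Gins2* at 0.745π and *Pcna* at 0.750π. *Rfc4* at 0.805π, *Pola1* at 0.810π and *Pclaf* at 0.850π formed the late end. These positions are at a span of 0.3 and in part depend on it. With a span of 0.1, *Mcm10* (0.70π) came before *Rpa2* (0.725π), and *Pcna* (0.870π) came after *Rfc4* (0.840π). *Pola1* (0.930π) and *Pclaf* (0.935π) were still last. At a span of 0.3 the median over the 10 genes was 0.740π, against 0.945π for the 428 periodic genes. Of these 428 genes, 51.2% had their maximum between 0.5π and 1π. Order was kept in both cultures in 41 of 45 pairs. *Rpa2* preceded *Tipin* in both, at 0.690π and 0.720π in culture 1 and 0.645π and 0.695π in culture 2. At this span the maximum was later in culture 1 for 10 of 10 genes, by a median of 0.0425π. With a span of 0.1 it was earlier in culture 1 for *Cdc45* (0.720π against 0.765π) and *Pola1* (0.805π against 0.905π). *Tipin* was then at 0.780π in both cultures and the rest were still later in culture 1. A shift in 1 direction for all genes thus depends on the span.

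The fall gave the order that held best. Its middle came first in *Cdc45* (1.15π), *Mcm10* (1.17π) and *Rpa2* (1.18π), then in *Prim1* (1.23π), *Tipin* (1.26π), *Pcna* (1.27π), *Gins2* (1.28π) and *Pola1* (1.31π), and last in *Rfc4* (1.40π) and *Pclaf* (1.46π). This order was the same in both cultures for 44 of 45 pairs, and on the rebuilt position it ran from *Cdc45* (1.16π and 1.10π) to *Pclaf* (1.45π and 1.39π). From the middle of the rise to the middle of the fall the lines spanned 0.819π in *Cdc45* to 1.08π in *Pclaf*. At this span *Tipin* thus rose first and fell in the middle of the group, while *Cdc45* rose late and fell first. With a span of 0.1, *Rpa2* (1.096π) fell before *Mcm10* (1.104π), and *Tipin* (1.193π) fell after *Pcna* (1.176π) and *Gins2* (1.187π). In culture 2 *Rpa2* (1.070π) then fell before *Cdc45* (1.077π). *Rfc4* (1.302π) and *Pclaf* (1.405π) were still last over both cultures. The order of the fall thus depends in part on the span. From 1.25π to 1.75π the classes held few cells, 85 and 64 in culture 1 and 279 and 189 in culture 2, and the loess lines there draw on cells of neighbouring positions.

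Stages deposited by the authors from a 5-stage assignment followed the order of the rise only in part. This assignment gave no stage to 2451 cells of culture 1 and 3151 cells of culture 2. The paper also reports that it puts some G0/G1 cells into other stages, so differences between its stages are a rough guide to timing. Mean values were higher in S than in G1.S in both cultures for 7 of the 10 genes (*Pcna*, *Pclaf*, *Cdc45*, *Pola1*, *Prim1*, *Rpa2* and *Rfc4*) and lower in S for *Gins2* and *Tipin*, while *Mcm10* differed between the cultures. *Rpa2* and *Pcna*, early to rise, were thus higher in S, and *Gins2*, which rose after them, was lower. *Tipin*, the first to rise, had a mean value of 3.38 in G1.S and 3.29 in S in culture 1, and of 4.04 and 3.48 in culture 2. *Pclaf*, the last at a span of 0.3, had 6.67 in G1.S and 10.5 in S in culture 1, and 6.27 and 9.69 in culture 2. By the Seurat assignment, whose S list holds 7 of the 10 genes, 8 of the 10 were higher in S than in G2M in both cultures, *Pclaf* was higher in G2M in both and *Rfc4* differed between the cultures. Cells in S exceeded cells in M.G1 for 10 of 10 genes. The shares of all genes that meet these stage rules are not given here, so the counts only describe the 10 genes. Which marker genes entered the 5 stages was not checked here.

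**Figure D3:**
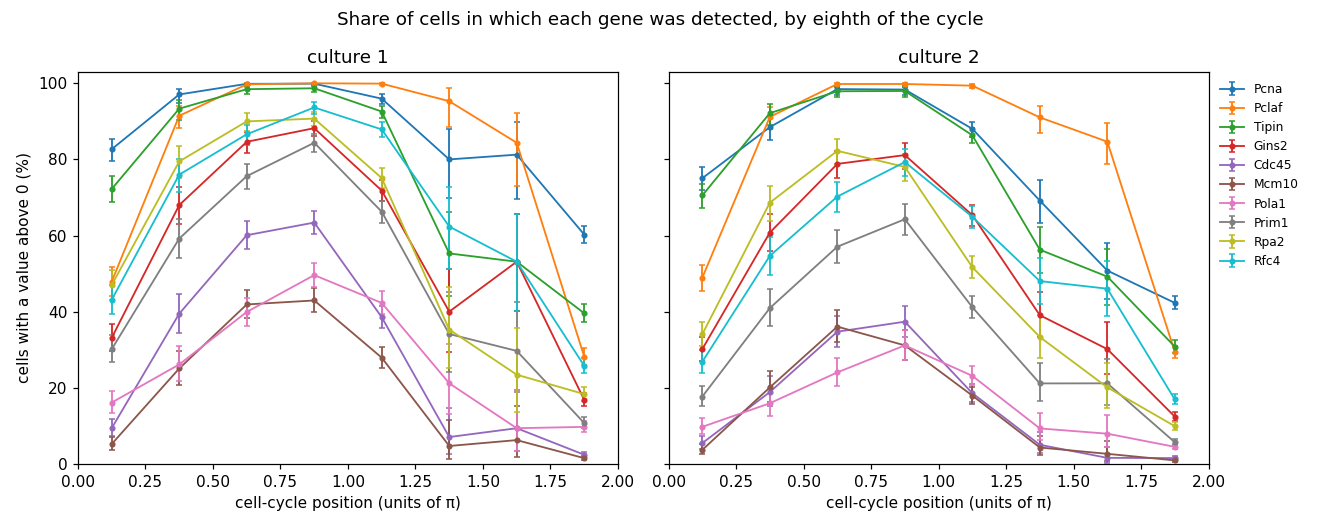
Share of cells in which each gene had a value above 0, in percent, by class of cell-cycle position of 0.25π width, for culture 1 (left) and culture 2 (right), with exact 95% binomial intervals as bars. From 0.25π to 1.75π *Pclaf* stays above 80% in both cultures, while *Cdc45* and *Mcm10* are below 10% from 1.25π on.

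Detection of the genes in single cells moved with the depth of the cells as well as with the position. At 0.75π to 1π, 8 or more of the 10 genes were detected in 72.6% of the 992 cells of culture 1 and in 36.1% of the 546 cells of culture 2, where the median depths were 22967 and 17148 UMIs. At 1.75π to 2π this held for 0.112% of cells of culture 1 and for 0 of 3149 cells of culture 2, at median depths of 18437 and 13991. There 9.61% and 20.8% of cells had none of the 10. Within 0.5π to 1π, *Cdc45* was detected in 51.8% of the shallower cells of culture 1 and 72.3% of the deeper ones, and in 31.8% and 40.4% in culture 2. Cells were not thinned to a common depth, since the deposited values do not give counts. The part of depth in the shares was not tested further, but with depth in the fit the partial R² reached 0.05 in both cultures for 10 of 10 genes and for 412 of all genes (3.86%). No cell type that should lack these genes was at hand, and the part of free RNA in the low shares at 1.75π to 2π was not tested.

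Upstream sequence was read from RefSeq (GRCm38.p6) for the 250 bases before the start of 8 of the 10 genes; *Tipin* and *Gins2* are named only. They are shown because the genes are transcribed together, and 3 motifs often named at cell-cycle genes were searched on both strands. They were the box CCAAT, the element TTTGAA of genes expressed late in the cycle, and an E2F motif spelled as TTTCCCGC, TTTCGCGC, TTTGCCGC or TTTGGCGC, and no match overlapped another. CCAAT was found in 7 of 8, and in 33.9% of 32851 windows of the same length over all genes. TTTGAA was found in 1 of 8, *Cdc45*, against 16.0% of windows, and an E2F word in 1 of 8, *Pola1*, against 1.86%. These are matches of letters and not sites of binding. The windows of *Mcm10* (chr2:5012792-5013041, minus strand) and *Pola1* (chrX:93632156-93632405, minus strand), the genes with the largest fold in culture 2 and the smallest R², begin at a start that RefSeq and GENCODE share, and are given 5′ to 3′ with the matches in capitals:
*Mcm10*: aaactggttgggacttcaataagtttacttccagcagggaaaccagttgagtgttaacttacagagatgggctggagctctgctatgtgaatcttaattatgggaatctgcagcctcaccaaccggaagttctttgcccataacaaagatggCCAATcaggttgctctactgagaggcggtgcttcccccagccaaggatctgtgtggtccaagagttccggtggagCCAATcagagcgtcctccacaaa
*Pola1*: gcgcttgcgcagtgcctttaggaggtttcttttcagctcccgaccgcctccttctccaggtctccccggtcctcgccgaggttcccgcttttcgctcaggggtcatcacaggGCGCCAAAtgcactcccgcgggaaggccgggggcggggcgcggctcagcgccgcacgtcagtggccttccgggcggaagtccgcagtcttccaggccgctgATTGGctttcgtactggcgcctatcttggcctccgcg

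In these windows *Mcm10* holds CCAAT at 98 and 23 bases before the start. *Pola1* holds it as ATTGG, on the other strand, at 37 bases and the E2F word as GCGCCAAA at 138 bases. For the remaining genes with a match, the RefSeq start lies elsewhere than the GENCODE one, and only a short stretch around the CCAAT match, in capitals as read on the gene's strand, is given to show where it falls:
*Pcna* chr2:132253253-132253277: cacgggtacgATTGGtccttgagga
*Pclaf* chr9:65890247-65890271: gacgctgtcaATTGGtccagagtga
*Pclaf* chr9:65890272-65890296: aggcgcggaaCCAATaagaatcgag
*Cdc45* chr16:18811973-18811995: cgaaccgtgtATTGGaaacttat
*Prim1* chr10:128015196-128015214: cttgttcccgCCAATtctc
*Rpa2* chr4:132768119-132768143: tatcgttttgATTGGttgttttctt
*Rpa2* chr4:132768266-132768290: atgagttctgATTGGctgaaggtaa
*Rpa2* chr4:132768298-132768322: cagggcgctgATTGGctgtcccttc

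*Rpa2*, among the first to rise, holds 3 of these matches, and *Pclaf* holds 2, at 66 and 41 bases before its RefSeq start. *Rfc4* holds none in its window. By the GENCODE coordinates the matches of *Pcna*, *Pclaf*, *Cdc45* and *Prim1* lie inside the gene, after its start, and those of *Rpa2* before it.

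Of 39 other genes of the fork, taken as a list by complex, 37 were in the table and 28 of them were periodic in both cultures, beside 4.01% of all genes. All 3 other GINS genes, both other genes of polymerase alpha and primase, the 4 other RFC genes, the 3 of fork protection (*Timeless*, *Clspn* and *Wdhd1*) and the 3 of initiation (*Topbp1*, *Ticrr* and *Donson*) passed. Of polymerase delta 2 of 3 passed and of polymerase epsilon 2 of 4. The 9 that did not pass were *Pold2*, *Pole3*, *Pole4*, *Rpa3*, *Rnaseh2a*, *Rnaseh2c*, *Chtf8*, *Mcmbp* and *Top1*, with a lower R² of 0.00532 to 0.0492. Both epsilon subunits among them, *Pole3* and *Pole4*, are small histone-fold proteins, and *Pole3* also serves in chromatin remodelling. *Top1*, a topoisomerase used in transcription too, differed least, with a mean value at 0.5π to 1π 1.14 and 1.10 times that at 1.75π to 2π.

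**Figure D4:**
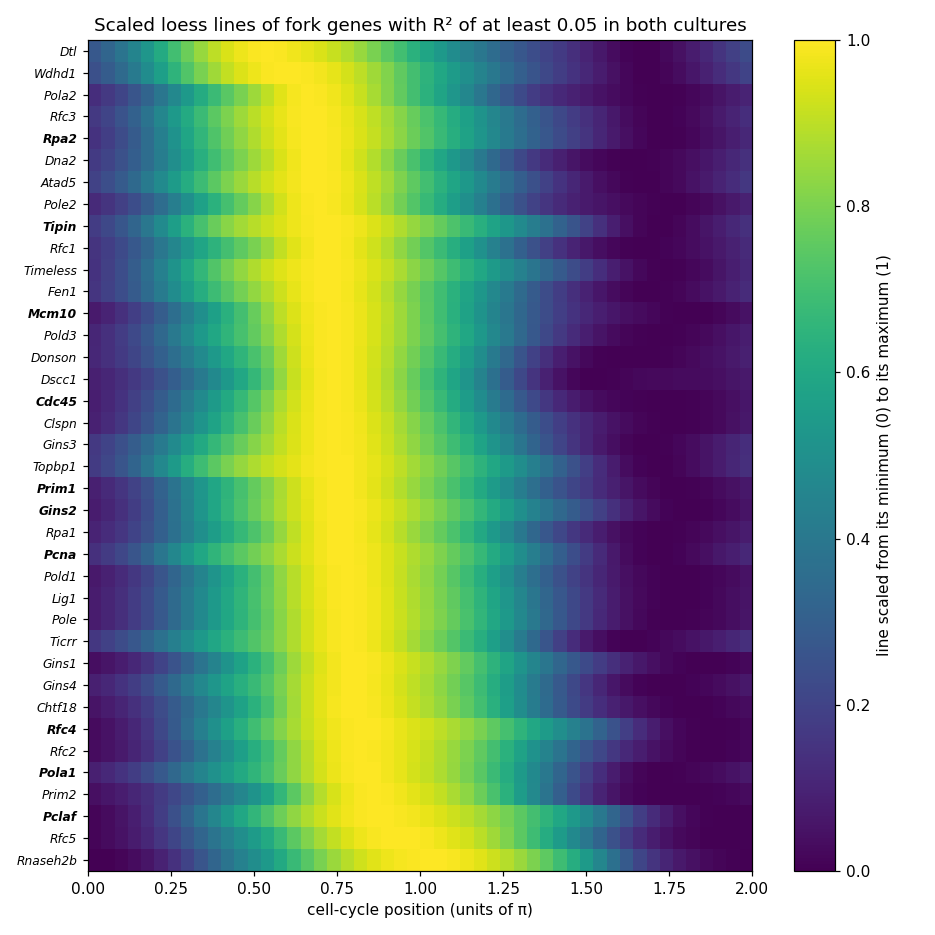
Loess lines over both cultures of the fork genes with R² of at least 0.05 in both cultures, each scaled from its minimum (0, dark) to its maximum (1, yellow), against cell-cycle position in units of π and ordered by the position of the maximum; the 10 genes described here are in bold. *Dtl* has the earliest maximum, at 0.515π, and *Rnaseh2b* the latest, at 1.015π, with the 10 genes between *Rfc3* and *Rfc5*.

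Subunits of one complex did not change by one factor. Folds are means at 0.5π to 1π over those at 1.75π to 2π, for culture 1 and culture 2. *Rpa2* changed 12.9-fold and 15.3-fold, while *Rpa1*, the large subunit, changed 3.97-fold and 4.61-fold and *Rpa3*, the small one, 2.14-fold and 2.07-fold. The order *Rpa2*, *Rpa1*, *Rpa3* was the same in both cultures. *Rfc4* changed 8.33-fold and 6.40-fold and *Rfc5* 7.77-fold and 8.0-fold, where *Rfc1*, the large subunit, changed 3.28-fold and 3.43-fold and *Rfc2* 3.39-fold and 3.31-fold. *Rfc3* lay between, at 4.89-fold and 6.14-fold. The rank of *Rfc4* and *Rfc5* thus turned between the cultures.

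In GINS, *Gins1* changed 14.5-fold in both cultures, *Gins2* 10.2-fold and 10.9-fold and *Gins3* 9.14-fold and 11.0-fold, whereas *Gins4* changed 3.13-fold and 2.96-fold. In fork protection, *Tipin* changed 8.81-fold and 9.81-fold, below its partner *Timeless* at 19.6-fold and 32.1-fold and below *Clspn*, the checkpoint mediator claspin, at 65.2-fold and 52.3-fold. *Tipin* and *Timeless* both had their maximum at 0.70π. Over the 10 genes the median fold was 11.6 and 13.1, and over the 37 others it was 7.77 and 8.17; the lists were chosen by name and no test compares them.

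The MCM2-7 genes, which encode the ring loaded on origins in G1, rose before most of the 10. Their median middle of the rise was 0.246π (0.220π to 0.265π for 6 genes), against 0.314π for the 10 fork genes. *Tipin*, *Rpa2* and *Pcna* fell within or before the MCM range and the other 7 after it. The median of the maxima was 0.685π for MCM2-7 and 0.740π for the 10. Among enzymes that supply deoxynucleotides, the middle of the rise was at 0.364π for *Dut*, 0.380π for *Rrm2*, 0.390π for *Tyms*, 0.421π for *Rrm1* and 0.488π for *Tk1*. At this span of 0.3, *Dut* preceded *Pclaf* (0.383π) in each culture, and *Rrm1* and *Tk1* followed it. *Tyms* changed sides: it followed *Pclaf* in culture 1 (0.398π against 0.381π) and preceded it in culture 2 (0.377π against 0.385π). *Rrm2* was not resolved from *Pclaf*, as its range over the cultures (0.372π to 0.382π) overlapped that of *Pclaf* (0.381π to 0.385π). With a span of 0.1, the line over both cultures placed *Rrm2* (0.403π) after *Pclaf* (0.381π).

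Across cells the fork genes were correlated, and little of this remained once the loess lines were subtracted. Pearson's r of log2(value + 1) over the cells of a culture had a median of 0.394 in culture 1 and 0.294 in culture 2 over the 45 pairs, with a range of 0.124 to 0.715 and of 0.0934 to 0.577. When each gene's loess line was subtracted, the medians were 0.0270 and 0.0241. *Pcna* and *Pclaf*, the clamp and its binding factor, kept the highest r, at 0.134 in culture 1 and 0.0971 in culture 2, from 0.715 and 0.577 before. The lines do not take out the position fully. In culture 1, cells around 1.15π had a *Pcna* mean of 1.81 under a line at 2.13, and a *Pclaf* mean of 3.06 under 3.23. Around 0.95π both means lay above their lines, at 2.79 over 2.54 and 3.66 over 3.54. The part of this shared misfit in the remaining r was not tested. These correlations are over 5748 and 7057 cells that share their library, their depth scaling and the position, and they are a description with no test.

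**Figure D5:**
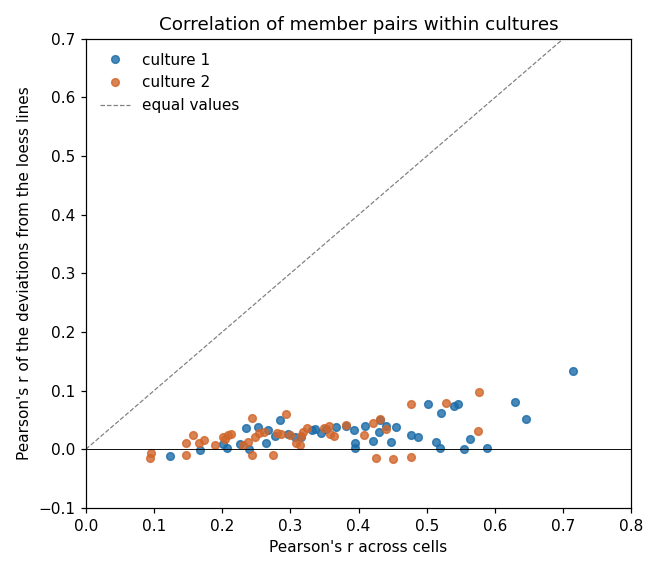
Pearson's r between 2 of the 10 fork genes across cells (x axis) against r between their deviations from the loess lines (y axis), for the 45 pairs in culture 1 (blue) and culture 2 (orange); the dashed line marks equal values. All points lie below that line, and the highest on the y axis, at 0.134, is *Pcna* with *Pclaf* in culture 1.

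The genes most alike were few and shared. By the lower r of the cultures, *Pclaf* was the gene nearest to each of the other 9 members, and *Rrm2*, a subunit of ribonucleotide reductase, was among the nearest 3 of 10 of the 10. These r values are without the loess lines subtracted. By the lower R² with the position, *Pclaf* and *Rrm2* stood in places 3 and 14 among all genes. *Pcna* was nearest to *Pclaf* (0.715 in culture 1 and 0.577 in culture 2), *Rrm2* (0.709 and 0.527) and *Hmgb2* (0.641 and 0.490), a chromatin protein. *Pclaf* was nearest to *Hmgb2* (0.831 and 0.749), *Rrm2* (0.843 and 0.712) and *Top2a* (0.750 and 0.688), the mitotic topoisomerase. *Rpa2* had *Hells*, a chromatin remodeller, as its nearest gene after *Pclaf* and *Rrm2* (0.494 and 0.428), and *Tipin* had *Dek* (0.573 and 0.509). A sparsely detected gene has a lower r with any gene, so *Pola1* (0.307 and 0.237 with *Pclaf*) is not shown to be less alike.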

How the data were processed

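Single cells of 2 replicate neurosphere cultures were measured by droplet RNA-seq. By the methods, the authors quantified spliced counts with Alevin (Salmon 1.3.0 in the processing notes) against GRCm38 and removed outlying cells, doublets by score, mitochondrial genes and rare genes. Expression, as deposited, is a signal normalized for depth by the authors, linear and not whole, so no count model was used and no cell was thinned or removed. Total UMIs per cell are estimated counts deposited by the authors, with 118762551 in culture 1 and 110527832 in culture 2. The authors' per-cell table also holds position and stages as other values.

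Values were taken as log2(value + 1). Periodic loess lines (degree 2, span 0.3 on tripled data, which is 90% of cells) were read at 400 positions; the span is not given in the sources used here. Each gene was fitted with 2 harmonics in each culture. For the rebuilt position, PCA was run in each culture on 500 of the Seurat and cyclone marker genes, by Seurat 5.3.0 and scran 1.30.0 lists in R 4.3.3, without any fork gene. Symbols were found for 10662 of 10666 genes. Other steps used Python 3.11.15, numpy 2.4.6, scipy 1.17.1 and pandas 2.3.3, and were tested on simulated data. Coordinates are from GENCODE vM21, an older release than that of the authors.

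Named genes are the 10 fork genes, the list of other fork genes, the MCM2-7 and deoxynucleotide lists, the 3 genes most alike to each of the 10, and marker lists for cell types. Some members of the deoxynucleotide and marker lists are not reported here. The genes and lists were chosen with earlier results of these data known. With 1 condition, no comparison of groups was made, p-values are not given and cells were not taken as replicates. Alternatives were the rebuilt position, each culture left out, another pseudocount, linear values, other thresholds, depth in the fit, a filter on detection in 10% of cells of each culture, 3 harmonics and other loess spans. Intervals are exact 95% binomial ones.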

Additional observations from a re-analysis of the deposited data

How the results depend on the processing

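The count of 10 periodic fork genes was 9 or 10 under 10 of 10 alternatives; at an R² threshold of 0.1 it was 9, without *Pola1*, and 240 of all genes passed (2.25%). At a threshold of 0.02, 890 of all genes passed (8.34%), and among the 6896 genes over the detection filter 372 passed (5.39%). Of the 37 other fork genes 28 were periodic, and 15 at a threshold of 0.1, where the construction itself lowers the count. Leaving out a culture gave 28 to 33, for which no share of all genes is given. The remaining alternatives gave 19 to 36. The 19 came from the detection filter, which also took genes such as *Gins3* and *Pole2* off the list of 37. The median position of the maximum, 0.740π, became 0.710π on the rebuilt position, 0.820π with a span of 0.1 and 0.798π with a span of 0.5, and 0.723π to 0.760π with a culture left out; the cause was not tested. The median range of the line, 1.21 on the log2(value + 1) scale, became 3.19 with a pseudocount of 0.1, 1.34 with a span of 0.1, 0.93 with a span of 0.5 and 1.26 with 2 harmonics, and 1.2 to 1.23 with a culture left out. No paired analysis was possible because there is 1 group. With 2 cultures, the spread between them rests on 2 values, shares of cells with a value above 0 move with depth, and levels are not comparable between cultures.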
